A study of Artemia parthenogenetic lineage with 6 samples.

Results

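The genes evm.TU.ctg41.1, evm.TU.ctg1716.2, evm.TU.ctg25.48, evm.TU.ctg115.32 and evm.TU.ctg179.3 are candidate G-protein-coupled receptor (GPCR) genes of *Artemia*, and the chromatin accessibility of their peaks in diapause and 5 h after embryonic diapause termination (EDT) is described here. They were taken by their identifiers from the study's list of candidate GPCR genes, where they stand with 10 other candidates. The authors' table gave each of its 112790 accessible regions (peaks) to the gene with the nearest transcription start site (TSS), and so 61 peaks to these 5 of 12010 genes. Each of the 61 had enough reads to be tested. Positions are those of the table, whose contigs and gene identifiers are those of the *A. franciscana* genome annotation. The study put these genes on its list partly through the ArR_5h libraries, which it set against libraries from 30 min after EDT (not analysed here), so the direction of their peaks is not independent of that choice. The name GPCR rests on the term for GPCR activity in the gene annotation alone. The study also predicted protein structures, and these 5 were not among the candidates that it identified as GPCRs by structure. No protein or gene sequence was used here, and whether these genes encode proteins built as GPCRs are is not known from these data.

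GPCRs are heptahelical proteins of the cell membrane that bind a ligand outside the cell, such as a hormone, a neuropeptide or an odorant, or absorb light, and pass the signal on to G proteins inside. In insects, a diapause hormone acts through such a receptor. *Artemia* cysts are encysted gastrula embryos whose development is halted in diapause and resumes after cues such as drying, cold, water and light. The annotation used here gives no ligand or receptor family for any of the 5 genes, and none of them is treated here as an established receptor.

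The libraries came from wild-type cysts of a parthenogenetic lineage, *A. parthenogenetica*, collected at Ebinur Lake, with 3 replicates of diapause cysts (ArD_0h, labelled as not treated) and 3 of cysts 5 h after EDT (ArR_5h). The same protocol text stands on all 6 libraries, the diapause ones included. It names dehydration and refrigeration to break diapause, rehydration in cold artificial seawater and incubation at 28 °C in continuous light. The study describes the replicates as biological replicates from 1 batch of cysts, so p-values set the group difference against the spread between samples of that batch. The treatment labels of ArR_5h replicates 1, 2 and 3 give 28, 29 and 30 °C, and whether replicates 2 and 3 were kept at another temperature is not known from the sources used here. Whole cysts were used, and whether a site opened in more nuclei or was opened further in each nucleus cannot be told apart. The labelled tissue was not checked against marker genes, since the table gives no gene names.

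In ATAC-seq the transposase Tn5 cuts accessible DNA, and the number of reads in a peak follows how open that stretch is. The libraries held 5239170 to 9366963 counts in peaks. ArD_0h replicate 1 stood apart: its counts over all peaks had Spearman correlations of 0.64 and 0.63 with replicates 2 and 3, which had 0.83 with each other, against 0.87 to 0.91 among the ArR_5h libraries. It also had the lowest share of counts in peaks, 10.6%, against at least 12.7% in the other ArD_0h libraries and 13.7% to 14.8% in ArR_5h. These shares are counts in peaks over the library total implied by the authors' RPM values. The part of these differences in the results was not tested beyond leaving the library out. Among the 61 peaks of the candidate genes it was the highest ArD_0h library at 27 and the lowest at 20, so it was not uniformly low there. Single counts at these peaks ran from 4 to 358, with a median of 35. The count of 4 has a 95% exact Poisson interval of 1.09 to 10.2, which covers counting error only.

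Levels are given in CPM, counts in peaks scaled to a common library total after TMM normalization, and differences as log2 of ArR_5h over ArD_0h with their standard error (SE). Higher and lower, for ArR_5h, are used only of peaks whose log2 difference exceeded 1 in size and whose p in edgeR's quasi-likelihood test, adjusted by Benjamini-Hochberg over all tested peaks, did not exceed 0.05. Such a peak is named called. Of the 61 peaks, 4 (6.56%) were called higher and 7 (11.5%) lower, while 14.5% of the 112211 tested peaks were called higher and 15.2% lower. The share of higher peaks was under that of all tested peaks in this and each of the 12 other settings with a test. The share of lower peaks was under it here but above it in 5 of those settings, with 9 peaks (14.8%) against 12.6% without ArD_0h replicate 1 and 7 (11.5%) against 8.49% without ArR_5h replicate 1. Higher peaks made up 48.8% of all called peaks in the table, but 64.0% when the libraries were scaled by the totals behind the authors' RPM values, which moved the median over all peaks by 0.15. With that scaling 8 of the 61 peaks (13.1%) were called higher and 6 (9.84%) lower, against 18.8% and 10.6% of all tested peaks. The median log2 difference of the 61 peaks was -0.10, and that of all tested peaks was -0.07. Another 12 peaks reached the adjusted p without reaching the limit on size, 4 with a positive and 8 with a negative difference. The share of all tested peaks that did so was not counted, so this split has no background to set beside it.

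All 11 called peaks had ArR_5h levels wholly above or wholly below those of ArD_0h. The limits for a call favour such a separation, so it adds no support to the calls. Counting every peak, the ArR_5h libraries lay above all ArD_0h libraries at 13 peaks (21.3%) and below all of them at 22 (36.1%), against 26.4% and 25.7% of all tested peaks. The groups overlapped at the other 26. Each of the 5 genes had at least 1 called peak, as did 9100 of 12002 genes in all and each of the other 10 candidates. The genes evm.TU.ctg41.1, evm.TU.ctg25.48 and evm.TU.ctg115.32 had both a higher and a lower one. Opposite calls within a gene were found for 3399 of 12002 genes (28.3%). Over all genes of the table the median was 7 peaks per gene, while 4 of the 5 candidate genes had 10 or more.

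**Figure D1:**
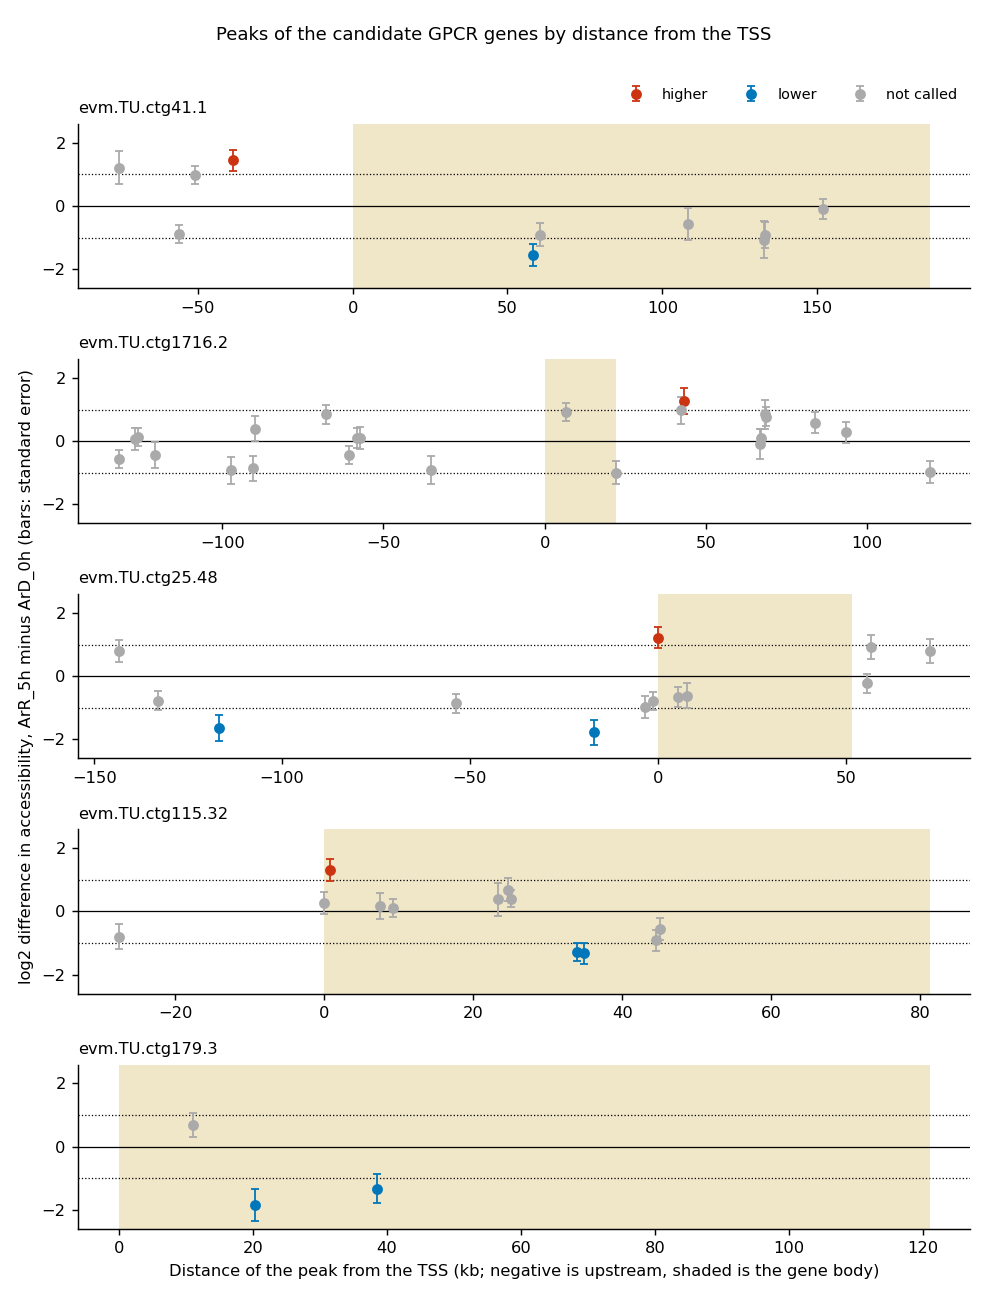
Log2 difference in accessibility (ArR_5h minus ArD_0h, vertical axis) of the 61 peaks against their distance from the TSS of the gene in kb (horizontal axis, negative upstream, gene body shaded), with 1 panel per gene. Points are peaks, bars are standard errors and dotted lines mark the limits of 1 and -1. The 4 higher peaks (red) and 7 lower peaks (blue) are spread over all 5 panels, and each gene has both positive and negative values.

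The place of the peaks differed between the genes. Only evm.TU.ctg25.48 and evm.TU.ctg115.32 had a peak over the TSS, and each had 1 more peak within 3000 bp of it. The other 3 genes had no peak within 3000 bp of the TSS. A peak over the TSS was listed for 3566 of all 12010 genes (29.7%). Of the remaining peaks, 21 lay in the gene bodies and 36 outside the gene. Of the 2 peaks over a TSS 1 was higher, as were 27.5% of all tested TSS peaks, and of the 2 others near it 1 was higher, against 12.4% of all such peaks. Inside the gene bodies none of the 21 peaks was higher and 5 were lower, with a median of -0.61, while 17.0% of the 35923 tested gene body peaks were higher and 11.0% lower, with a median of 0.01. Of the 36 outside peaks 2 were higher and 2 lower, against 12.7% and 19.0% of 66602. Peak width ran from 200 to 1003 bp (median 332 bp, against 328 bp over all peaks). They had up to 9 summits, and 37 of them (60.7%) had a single summit, against 53.4% of all peaks. Their mean levels ran from the 1.35 to the 96.1 percentile of all peaks, with the median peak at the 45.3 percentile.

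The gene evm.TU.ctg25.48 lies on the plus strand of ctg25 from 3360640 to 3412233, and was the only 1 of the 5 with a called peak over its TSS. The table gave it 13 peaks, of which the TSS peak was higher and 2 upstream peaks were lower in ArR_5h. The TSS peak, from 3360223 to 3361123, had levels of 7.50, 18.8 and 22.4 CPM in the 3 diapause libraries (replicates 1, 2 and 3, the order used throughout) against 40.2, 34.4 and 38.6 CPM at 5 h. Every ArR_5h library was above every ArD_0h library, and ArD_0h replicate 1 was the lowest by far. The log2 difference was 1.22 (SE 0.333, edgeR adjusted p = 0.00668), a 2.34-fold rise. Its mean over all 6 libraries was the highest of the 61 peaks, at the 96.1 percentile of the table, although in ArD_0h alone the TSS peak of evm.TU.ctg115.32 had the higher mean (22.7 against 16.2 CPM). Of all tested TSS peaks 0.982% were lower, and their median was 0.71. Without ArD_0h replicate 1 the difference was 0.87 (edgeR adjusted p = 1.05e-05). It was 0.93 (edgeR adjusted p = 0.00932) once the trend on level was removed. Both differences were under the limit of 1 on size, while the adjusted p stayed within its limit.

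At 1386 bp upstream of this TSS the peak from 3358665 to 3359254 went the other way. Its level was 16.0, 19.7 and 19.0 CPM in ArD_0h and 8.21, 10.4 and 13.1 CPM in ArR_5h, without overlap. With a log2 difference of -0.80 (SE 0.283, edgeR adjusted p = 0.0292) it was under the limit on size and not called, but it was called lower (-1.13) once the trend on level was removed. ArD_0h replicate 1 was near its group here, unlike at the TSS peak. The 2 lower peaks lay further upstream. The peak 16855 bp upstream, from 3343415 to 3343785, held 10.1, 6.26 and 6.26 CPM in ArD_0h and 1.24, 3.77 and 1.50 CPM in ArR_5h. It fell by 1.77 on the log2 scale (SE 0.390, edgeR adjusted p = 0.00166). The peak 116828 bp upstream, from 3243584 to 3243812, held 5.98, 5.19 and 6.83 CPM in ArD_0h and 1.12, 1.53 and 3.37 CPM in ArR_5h, a log2 difference of -1.65 (SE 0.412, edgeR adjusted p = 0.00391).

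Of the 7 upstream peaks of evm.TU.ctg25.48, 6 had a negative difference. The exception was the farthest, 143418 bp upstream, with 0.80 and overlapping groups. This peak and the next, at 133111 bp, lie inside the body of the gene evm.TU.ctg25.46 and were given to evm.TU.ctg25.48 because its TSS is nearer. Inside evm.TU.ctg25.48 neither of the peaks, at 5246 and 7733 bp, was called (-0.66 and -0.61 on the log2 scale). Beyond the gene end the peak 56757 bp from the TSS held 2.08, 14.4 and 11.0 CPM in ArD_0h and 17.8, 17.2 and 16.7 CPM in ArR_5h, again with ArD_0h replicate 1 lowest, and was not called (0.92, SE 0.391, edgeR adjusted p = 0.0608).

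The share of the gene's own count that fell in the TSS peak does not depend on how the libraries are scaled. For evm.TU.ctg25.48 it was 7.45%, 14.2% and 19.6% in the ArD_0h libraries and 36.2%, 31.1% and 30.7% in the ArR_5h libraries. This gave means of 13.8% ± 6.09 and 32.6% ± 3.05 (SD, n = 3 each). The 7 upstream peaks together took 63.6%, 49.1% and 48.8% of the count in ArD_0h and 27.4%, 31.6% and 35.9% in ArR_5h. Neither share overlapped between the groups, but both are parts of the same total and are not separate results. Over the whole table, TSS peaks had a median log2 difference of 0.71 and outside peaks one of -0.20. Shares of a gene's count are given as descriptions and were not tested.

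**Figure D2:**
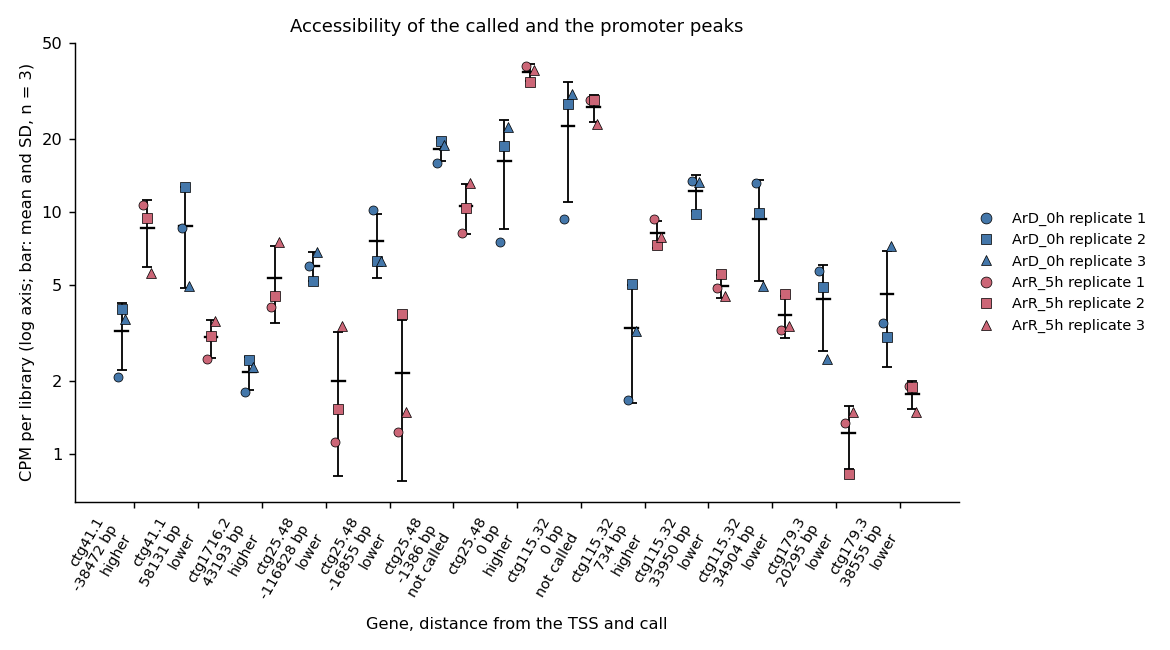
CPM per library (log axis) at the 11 called peaks and the 2 other peaks within 3000 bp of a TSS, with ArD_0h in blue and ArR_5h in red, a symbol per replicate, and lines for the mean and SD (n = 3). The libraries of the groups do not overlap at any called peak, which the limits for a call favour. ArD_0h replicate 1 is the lowest library at the TSS peaks of ctg25.48 (7.50 CPM) and ctg115.32 (9.31 CPM).

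The gene evm.TU.ctg115.32 lies on the minus strand of ctg115 from 1796951 to 1878231. A small peak just inside the gene was higher in ArR_5h, a pair of neighbouring peaks deeper in the gene was lower, and the large peak over the TSS was not called. The TSS peak, from 1877759 to 1878761, was the widest of the 61 (1003 bp) and merged 9 summits. It held 9.31, 27.9 and 30.7 CPM in ArD_0h and 29.0, 29.1 and 23.0 CPM in ArR_5h, so that ArD_0h replicates 2 and 3 stood at the level of the ArR_5h libraries and replicate 1 far below them. The log2 difference was 0.26 (SE 0.344, edgeR adjusted p = 0.547) and turned to -0.11 without ArD_0h replicate 1 and to -0.02 once the trend on level was removed. At 734 bp inside the gene the small peak (1877217 to 1877497) held 1.67, 5.04 and 3.23 CPM in ArD_0h and 9.33, 7.31 and 7.87 CPM in ArR_5h. It rose by 1.31 on the log2 scale (SE 0.346, edgeR adjusted p = 0.00553). Without ArD_0h replicate 1, its lowest library, it rose by 0.96 (edgeR adjusted p = 0.0117), which was under the limit on size.

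The lower pair in evm.TU.ctg115.32 lay 33950 and 34904 bp from the TSS, less than a peak width apart. The nearer (1843756 to 1844281) held 13.5, 9.77 and 13.3 CPM in ArD_0h and 4.83, 5.54 and 4.49 CPM in ArR_5h. Its replicates were close in both groups, and the log2 difference was -1.29 (SE 0.282, edgeR adjusted p = 0.00161). The farther (1842805 to 1843327) held 13.2, 9.93 and 4.93 CPM in ArD_0h and 3.26, 4.60 and 3.37 CPM in ArR_5h, a log2 difference of -1.33 (SE 0.336, edgeR adjusted p = 0.00424). Here ArD_0h replicate 3 came near the ArR_5h libraries. Both calls held under each of the 12 other settings with a test of its own. The peak 44511 bp from the TSS had a difference of -0.92 and was not called, although its groups did not overlap.

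Between the promoter and this pair, none of the 5 peaks from 7508 to 24984 bp inside evm.TU.ctg115.32 was called, with log2 differences of 0.12 to 0.69. The only upstream peak, 27597 bp away, had -0.80 with overlapping groups. The TSS peak took 10.8%, 31.9% and 34.1% of the gene's count in ArD_0h and 34.7%, 34.3% and 28.4% in ArR_5h, so that this share overlapped between the groups, in contrast to that of evm.TU.ctg25.48.

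The gene evm.TU.ctg41.1 spans 186402 bp on the minus strand of ctg41, from 5763 to 192164, and was the longest of the 5. Of its 10 peaks, 1 upstream of the gene was higher and 1 inside it was lower in ArR_5h. The higher peak, 38472 bp upstream from 230636 to 231171, held 2.08, 3.97 and 3.61 CPM in ArD_0h and 10.7, 9.43 and 5.62 CPM in ArR_5h. Its log2 difference was 1.44 (SE 0.337, edgeR adjusted p = 0.00250), a 2.72-fold rise. The lower peak, 58131 bp inside the gene from 133599 to 134033, held 8.62, 12.7 and 4.93 CPM in ArD_0h and 2.47, 3.07 and 3.56 CPM in ArR_5h. Its ArD_0h libraries were spread widely, yet all lay above the ArR_5h libraries, with a log2 difference of -1.55 (SE 0.346, edgeR adjusted p = 0.00178). Both calls held under all 12 other settings with a test.

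All 6 peaks inside evm.TU.ctg41.1 had negative differences, from -1.55 to -0.10. The peak with the highest mean of the gene over all 6 libraries, 151958 bp from the TSS, held 5.14, 11.1 and 13.1 CPM in ArD_0h and 8.09, 11.9 and 6.93 CPM in ArR_5h, which overlap. Its difference of -0.10 (SE 0.320, edgeR adjusted p = 0.815) changed sign with the setting. Of the 4 upstream peaks, 3 had positive differences. At 50764 bp the levels were 5.42, 4.73 and 4.93 CPM in ArD_0h and 12.1, 9.08 and 8.61 CPM in ArR_5h, and its log2 difference of 0.99 (SE 0.286, edgeR adjusted p = 0.00968) fell just short of the limit. The peak at 56032 bp, only a few kb away, had a negative difference (-0.89, edgeR adjusted p = 0.0187) and was likewise not called. The 4 upstream peaks lie in a stretch of 133708 bp in which the table lists no gene.

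The upstream peaks of evm.TU.ctg41.1 together took 40.0%, 33.9% and 32.9% of its count in the ArD_0h libraries and 63.7%, 53.5% and 51.8% in the ArR_5h libraries. The groups did not overlap, with means of 35.6% ± 3.82 before EDT and 56.3% ± 6.40 after it (SD, n = 3 each). ArD_0h replicate 1 was the closest of its group to the ArR_5h libraries in this share, the reverse of its place in the TSS peaks.

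**Figure D3:**
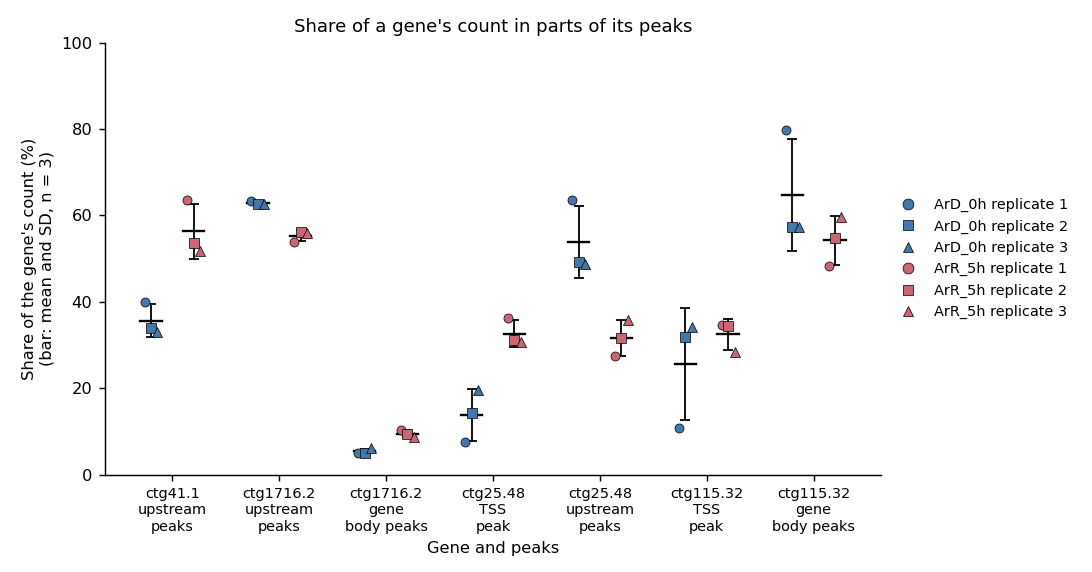
Share of a gene's own count (vertical axis, percent) in its TSS peak, its upstream peaks or its gene body peaks, per library, with ArD_0h in blue and ArR_5h in red, a symbol per replicate, and lines for the mean and SD (n = 3). The upstream share of ctg41.1 and the TSS share of ctg25.48 are higher in every ArR_5h library than in any ArD_0h library, and the TSS share of ctg115.32 overlaps between the groups.

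The gene evm.TU.ctg1716.2 lies on the minus strand of the contig ctg1716 from 97821 to 119887. It had the most peaks of the 5 genes, 23, but only 1 of them inside the gene, since the table lists no other gene on that contig and so gave it every peak there. A single peak was called, 43193 bp from the TSS and beyond the gene end, from 76484 to 76694. It held 1.81, 2.44 and 2.28 CPM in ArD_0h and 4.05, 4.48 and 7.49 CPM in ArR_5h, a log2 difference of 1.27 (SE 0.400, edgeR adjusted p = 0.0156). Without ArR_5h replicate 3, the highest library, the difference was 0.97 (edgeR adjusted p = 0.121). The neighbouring peak at 42414 bp had a like difference of 0.97 and was not called.

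The peak inside evm.TU.ctg1716.2, 6626 bp from the TSS, held 6.53, 6.26 and 8.16 CPM in ArD_0h and 13.7, 12.7 and 13.1 CPM in ArR_5h. The replicates agreed closely, and the log2 difference of 0.92 (SE 0.271, edgeR adjusted p = 0.0107) was under the limit on size. Its share of the count of all 23 peaks was 5.09%, 5.01% and 6.03% in ArD_0h and 10.2%, 9.33% and 8.71% in ArR_5h. The peak 22106 bp from the TSS, just past the gene end, came to the limit without crossing it (-0.998, SE 0.360, edgeR adjusted p = 0.0310). The peak with the highest mean over all 6 libraries, 60737 bp upstream, held 15.8, 11.9 and 17.8 CPM in ArD_0h and 11.5, 8.72 and 13.9 CPM in ArR_5h, and its difference of -0.43 (SE 0.286, edgeR adjusted p = 0.228) was not called. In ArR_5h alone 3 other peaks had a higher mean, among them the peak inside the gene. Over the 23 peaks the differences ran from -0.998 to 1.27, with 14 positive and 9 negative and a median of 0.09.

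The gene evm.TU.ctg179.3 spans 121065 bp at the start of ctg179, on the plus strand from 6112 to 127176. It had only 3 peaks, all inside the gene and all of low level, of which 2 were lower in ArR_5h. The peak 20295 bp from the TSS, from 26407 to 26644, held 5.70, 4.89 and 2.47 CPM in ArD_0h and 1.35, 0.825 and 1.50 CPM in ArR_5h. Its log2 difference of -1.85 (SE 0.513, edgeR adjusted p = 0.00743) was the largest in size among the 61 peaks, from counts of 7 to 41 per library. The call held under each of the 12 other settings with a test. The peak 38555 bp from the TSS, from 44667 to 44964, held 3.47, 3.05 and 7.21 CPM in ArD_0h and 1.91, 1.89 and 1.50 CPM in ArR_5h, a log2 difference of -1.33 (SE 0.464, edgeR adjusted p = 0.0263). This call was the weakest of the 11, and it held in only 5 of the 12 settings. Without ArD_0h replicate 3, its highest library, the difference was -0.84 (edgeR adjusted p = 0.216). Leaving out ArR_5h replicates 1, 2 or 3 left differences of -1.39, -1.37 and -1.24, close to that with all libraries, with edgeR adjusted p of 0.0723, 0.0661 and 0.0647.

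The remaining peak of evm.TU.ctg179.3, 11017 bp from the TSS, held 2.50, 3.21 and 3.04 CPM in ArD_0h and 5.73, 3.89 and 4.31 CPM in ArR_5h. The groups did not overlap, but with 0.68 (SE 0.372, edgeR adjusted p = 0.142) it was not called. A further peak inside the gene, from 124494 to 124826, was given to the next gene, evm.TU.ctg179.4, whose TSS is nearer, and was not called either (0.50, edgeR adjusted p = 0.302). Another candidate GPCR gene, evm.TU.ctg179.30 of the opsin family, lies on the same contig 1596038 bp further on and shares no peak with evm.TU.ctg179.3.

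**Figure D4:**
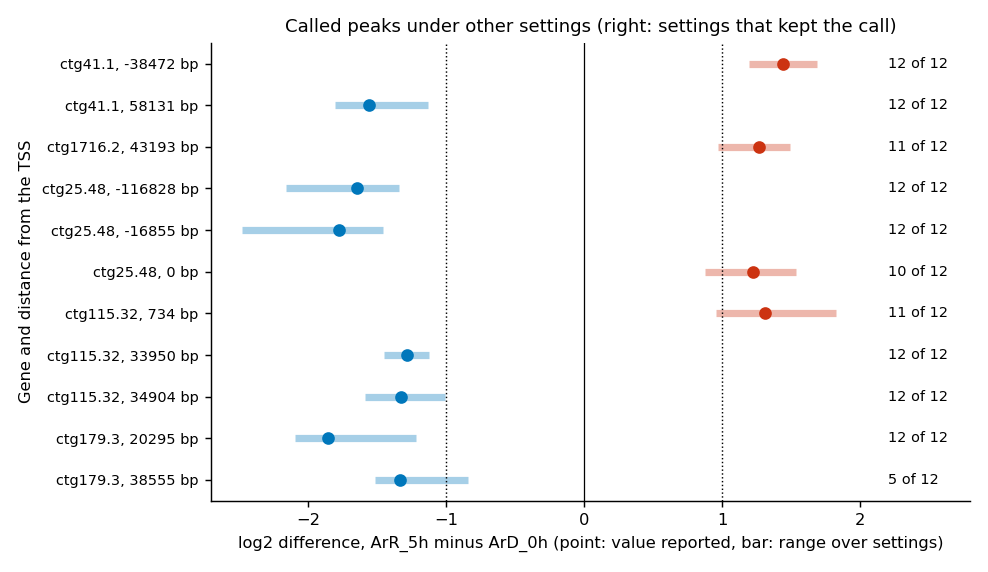
Log2 difference (ArR_5h minus ArD_0h, horizontal axis) of the 11 called peaks, named by gene and distance from the TSS. Points are the values reported, bars the range over the 12 other settings with a test, and dotted lines the limits of 1 and -1. The 7 peaks marked 12 of 12 kept their call in all of these settings, while ctg179.3 at 38555 bp kept it in 5.

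To give 1 value per gene, the counts of all peaks of a gene were summed in each library and tested in the same way over 12002 genes. No gene total of the 5 was called, with 2.57% of all gene totals called higher and 5.97% lower. DESeq2 called none either. At an unadjusted p under 0.05 there was 1, evm.TU.ctg179.3. Its summed level was 12.5, 11.3 and 12.7 CPM in ArD_0h and 8.63, 6.45 and 7.25 CPM in ArR_5h, or 12.1 ± 0.764 against 7.44 ± 1.11 (SD, n = 3 each). The groups did not overlap, and the log2 difference was -0.70 (SE 0.223, edgeR adjusted p = 0.0297), under the limit on size. The adjusted p exceeded 0.05 in 7 of 13 other settings, among them those without ArD_0h replicate 3 and without each of the ArR_5h replicates. Of all gene totals called, 30.1% were higher, and 69.7% with the totals behind the RPM values, which moved the median over all genes by 0.22.

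The other 4 totals were not called, and their values moved with the scaling. That of evm.TU.ctg41.1 was 55.1 ± 5.71 CPM in ArD_0h and 46.9 ± 4.98 in ArR_5h (SD, n = 3 each), a log2 difference of -0.23 (SE 0.131), or -0.00077 with the totals behind the RPM values. For evm.TU.ctg115.32 it was 90.2 ± 1.82 and 81.2 ± 1.49 CPM (SD, n = 3 each), with -0.15 (SE 0.0893), which turned to 0.07 with that scaling. The totals of evm.TU.ctg25.48 (118 ± 13.5 and 113 ± 10.1 CPM, -0.07, SE 0.115) and evm.TU.ctg1716.2 (133 ± 5.63 and 137 ± 11.0 CPM, 0.04, SE 0.0980) overlapped between the groups (SD, n = 3 each). With the RPM totals the difference of evm.TU.ctg25.48 turned to 0.15 and that of evm.TU.ctg1716.2 grew to 0.27 (edgeR adjusted p = 0.0856). In these 4 genes the edgeR adjusted p ran from 0.183 to 0.733. Totals are not comparable between genes, which differ in the number and width of their peaks. When only peaks inside the gene or within 3000 bp of the TSS were summed, evm.TU.ctg41.1 had -0.88 (edgeR adjusted p = 0.00500) and evm.TU.ctg1716.2, then a single peak, 0.76 (edgeR adjusted p = 0.0239), still under the limit.

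**Figure D5:**
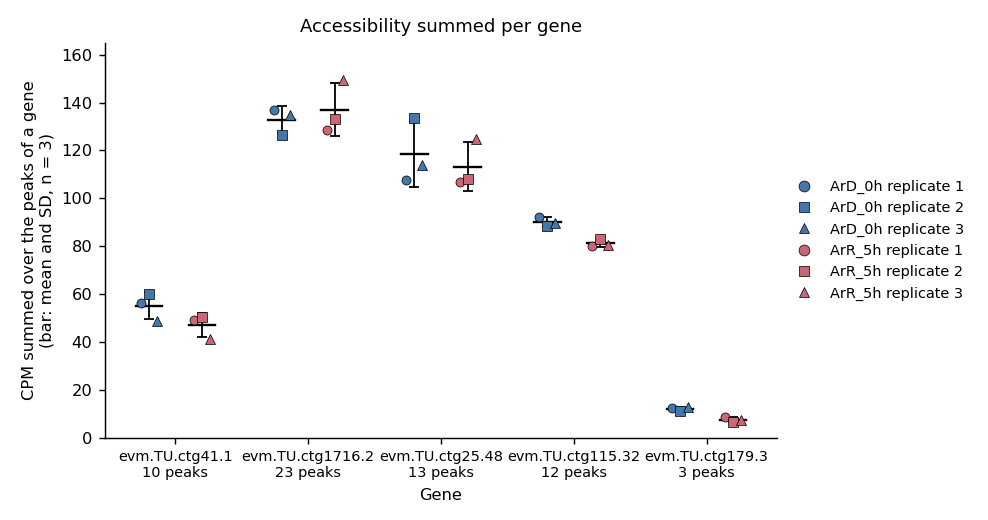
CPM summed over all peaks of each gene, per library (vertical axis from 0), with ArD_0h in blue and ArR_5h in red, a symbol per replicate, and lines for the mean and SD (n = 3). The groups do not overlap in evm.TU.ctg115.32 (90.2 against 81.2 CPM) and evm.TU.ctg179.3 (12.1 against 7.44 CPM), and they overlap in the other 3 genes. The share of all gene totals without overlap was not counted.

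The genes other than evm.TU.ctg1716.2, whose contig had no other peaks, were also set beside the other peaks of their contigs. On ctg179, 24.1% of the 203 other tested peaks were higher and 12.8% lower, with a median of 0.19, while evm.TU.ctg179.3 had 2 lower peaks of 3. On ctg41, 15.8% of 202 other peaks were higher and 11.9% lower. The shares were 11.1% and 15.8% of 298 peaks on ctg25 and 12.1% and 17.4% of 207 peaks on ctg115. No test of a gene against its contig was made.

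The other 10 candidate GPCR genes of the study had 141 tested peaks, of which 25 (17.7%) were higher and 25 (17.7%) lower, with a median of 0.03. Of their totals 1 was called higher and 2 lower, and none was called among the 5 genes described here. Since 2.57% of all gene totals were higher and 5.97% lower, having no call does not set these 5 genes apart. The 4 further genes that the study's annotation places in the GPCR signaling pathway had 44 tested peaks, 18 higher and 3 lower, with a median of 0.71. These genes were also chosen by the study on libraries that include those used here. By the root mean square difference of their centred profiles of summed log2 CPM over the 6 libraries, the candidate most like evm.TU.ctg41.1 (0.17), evm.TU.ctg115.32 (0.17) and evm.TU.ctg179.3 (0.21) was evm.TU.ctg441.12, annotated as a receptor for RYamide neuropeptides, a role known from *Drosophila*. Most like evm.TU.ctg1716.2 was evm.TU.ctg71.25 (0.12), and most like evm.TU.ctg25.48 was evm.TU.ctg179.30 (0.20) of the opsin family, opsins being the protein part of visual pigments. The total of evm.TU.ctg179.30 had a log2 difference of 0.24 and that of evm.TU.ctg25.48 one of -0.07, so their signs differed. In each other pair the signs were the same. With 10 candidates and 6 libraries these likenesses are descriptions, and the next candidates followed at 0.13 to 0.25.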

How the data were processed

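The labels name BWA and MACS2. For its own libraries the study describes trimming, mapping to the *A. franciscana* assembly, removal of low-quality, mitochondrial and duplicate reads and peak calling, and the table carries that species' gene identifiers, so reads of *A. parthenogenetica* were mapped to another species. The counting tool and a shift for the Tn5 offset are not given in the sources used here. The authors deposited whole-number counts for each merged peak and library, the gene with the nearest TSS and its distance. RPM values, also deposited, were (count + 1) scaled by a fixed library total, and were used here for that total alone. No column of per-sample values was left unmapped.

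Peaks that passed edgeR's low-count filter were normalised by TMM and tested with its quasi-likelihood test (edgeR 4.0.16, R 4.3.3), with Benjamini-Hochberg adjustment over all peaks or over all gene totals. The SE was taken from the fold and its F statistic (log2 over the root of F). Log2 CPM used a prior count of 2. The procedure was tested on simulated counts with a common dispersion and no outlying library, which does not bear on single calls here. Other settings were DESeq2 1.42.0, median-ratio factors, RPM totals, a loess offset on level (limma 3.58.1), no filter, a replicate block, each library left out, the log2 limit alone, a promoter of 1000 bp, and totals of near peaks. Tables were made in Python 3.11.15 with pandas 2.3.3, and intervals with scipy 1.17.1. The genes, lists and settings were chosen with earlier results of these data known. Named with full values were all promoter peaks, all called peaks and the peak of each gene with the highest mean over all libraries. Peaks beside them were named after their values were seen.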

Additional observations from a re-analysis of the deposited data

How the results depend on the processing

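The count of higher peaks among the 61 was 4 and became 8 with the totals behind the RPM values (13.1%, against 18.8% of all tested peaks). It ran from 4 to 8 when a library was left out. Without ArD_0h replicate 2 it was 8 (13.1%) and without ArD_0h replicate 3 it was 7 (11.5%), against 16.9% and 17.1% of all tested peaks. Without ArD_0h replicate 1, which stood apart, 4 peaks (6.56%) were higher and 9 (14.8%) lower, against 10.8% and 12.6% of all tested peaks. Only 2 of the 4 higher peaks were shared with the full set of libraries. The higher peaks lost, over the TSS of evm.TU.ctg25.48 and 734 bp inside evm.TU.ctg115.32, missed the limit on size alone. Lower peaks were 7 and stayed between 6 and 9 in every setting. Their share exceeded that of all tested peaks in 5 of 12 settings, namely without ArD_0h replicate 1 or 2 (14.8% against 12.6% and 13.2%), without ArR_5h replicate 1 or 2 (11.5% against 8.49% and 13.1% against 10.7%) and without the trend on level (14.8% against 13.4%). Of the 11 calls, 7 held in all 12 settings with a test. The log2 limit alone gave 5 higher and 8 lower, with no share over all peaks to set beside them. A promoter distance of 1000 bp left 2 higher of 3 promoter peaks instead of 2 of 4, and no share over all peaks within 1000 bp was counted. No total of the 5 genes was called in any setting. With the replicate block 5 peaks (8.20%) were higher and 7 (11.5%) lower, against 14.8% and 13.6% of all tested peaks. The same-numbered libraries showed no sign of pairing (correlations of their deviations from the group means of -0.21, 0.00 and -0.15). With 3 libraries per group these values cannot exclude it. The block changed the call of evm.TU.ctg179.3 at 38555 bp (-1.23, edgeR adjusted p = 0.0560), as did RPM totals (-1.18) and removal of the trend on level (-0.96). Values that were not called changed sign in 12 cases. At evm.TU.ctg41.1, 151958 bp, the value was 0.043 with RPM totals and -0.413 to 0.18 without single libraries. The TSS peak of evm.TU.ctg115.32 had -0.024 without the trend and -0.11 to 0.552 without single libraries. Among totals, evm.TU.ctg1716.2 had -0.068 without the trend and -0.0194 to 0.0885 without single libraries, evm.TU.ctg25.48 0.15 with RPM totals, 0.0744 with near peaks only and -0.139 to 0.031 without single libraries, and evm.TU.ctg115.32 0.072 with RPM totals. Apart from fewer libraries or peaks, the cause was not tested. Counts of 4 to 358 per peak limit the precision of each value.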
